A study of Mus musculus with 6 samples.

Results

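Mes1 is the smaller of a pair of mesenchymal cell clusters in a single-cell RNA sequencing survey of the mouse olfactory bulb, and it held 230 of the 51426 cells that were assigned to a cluster. Its members are the cells that the authors' clustering placed in it, under the name used in the study's marker table. The deposited cell annotation has the names of the mesenchymal pair the other way round: the 230 cells called Mes1 here are called Mes2 there, and the 653 cells called Mes2 here are called Mes1 there. The survey took olfactory bulbs of adult C57BL/6NJ mice with no transgene, dissected with some of the surrounding tissue so that the most anterior tip was kept. There were 3 groups of 2 libraries each: control, naris occluded (one nostril closed with a plug, so that the bulb on that side lacked odor input) and trained (mice that learned an odor discrimination task). Each library was a pool of mice of 1 treatment and, by the data, of 1 sex. The labels give the control libraries no manipulation, while the study's text speaks both of naive mice and of the open side of occluded mice as controls. In Mes1, Xist had 0 unique molecular identifiers (UMIs, counted RNA molecules) in each replicate 1 library and 103 to 190 in each replicate 2 library, and Ddx3y, a Y-linked gene, had 11 to 18 and 0. With 2 libraries in a group, p-values measure the spread between these pools.

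Mesenchymal cells of the brain surface build the meninges. The pia lies on the tissue and follows its vessels, the arachnoid lies above it with an outer barrier layer whose cells are joined by tight junctions and carry efflux transporters, and the dura is the tough outermost sheet. Fibroblasts of these layers make collagens and proteoglycans, bind and hand on growth factors, and make retinoic acid. Mural cells, the pericytes and smooth muscle cells of vessels, share a mesenchymal origin with them and are marked by contractile and receptor genes.

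Mes1 cells were found in every library, with 33 and 32 in the control, 39 and 48 in the naris occluded and 54 and 24 in the trained libraries. The cells summed to 72727 to 202938 UMIs in a library. A Mes1 cell had a median of 1857.5 UMIs (526 to 33205) and 974 genes, against 1339 UMIs and 644 genes in Mes2, 3508 UMIs in Mural1 (158 cells) and 1349 UMIs in Mural2 (769 cells). The median share of mitochondrial UMIs was 12.6% in Mes1 and 13.9% in Mes2. Doublets had been taken out by the authors, as the methods of the study state, and no further doublet caller was run. Of the Mes1 cells 13 had over 10000 UMIs, and 19 had a cell barcode that another library also held. Levels below are counts per 1000000 (CPM) of all UMIs of a cluster in a library, given as the mean ± SD over 6 libraries unless said otherwise.

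The markers given for the cluster were present, though at lower levels than in Mes2. Col1a1, a chain of collagen I, stood at 165 ± 48.5 CPM in Mes1 and 317 ± 56.6 CPM in Mes2. At least 1 Col1a1 UMI was found in 28.3% of Mes1 cells (7.39% after each cell was thinned to 500 UMIs, which no cell of these clusters fell short of) and in 33.7% of Mes2 cells (11.3% thinned). Microglia of the MicroG1 cluster, which should lack collagen I, had a share of 0.0442% both ways. Dcn, the collagen-binding proteoglycan decorin, stood at 390 ± 239 CPM against 1784 ± 443 CPM, and it was detected in 20.9% of Mes1, 58.2% of Mes2 and 0.575% of MicroG1 cells (7.83%, 36.6% and 0.0885% thinned). By library, the Dcn level in Mes1 was 700 and 333 CPM in the control, 631 and 387 CPM in the naris occluded and 81.4 and 206 CPM in the trained libraries, all below the 1121 to 2257 CPM of Mes2. In control replicate 1 a single cell held 79 of the 85 Dcn UMIs, and in control replicate 2 a single cell held 23 of 43. Single cells also held 64 of 128 in naris occluded replicate 1 and 36 of 47 in naris occluded replicate 2. In the trained libraries the largest were 4 of 12 and 5 of 15. Of the 6 fibroblast genes listed (Col1a1, Dcn, Col1a2, Col3a1, Lum and Pdgfra), 5 were first or second in Mes1 among the 38 clusters, and none was first.

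The genes that set Mes1 apart from the other 37 clusters were others. Of 3004 genes with at least 50 CPM in Mes1, 331 were higher there than in any other cluster, 94 of them at least 2-fold above the next one, and 80 of these 94 were also highest in Mes1 in each library. The next cluster was Mes2 for 24 of the 94 genes, the cluster named EC1 for 10, Mural2 for 7 and Mural1 for 4. The cells were clustered on such values, so these genes are a description with no test.

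The first of them was Nov (CCN3), a secreted matricellular protein. Nov was at 1136 and 2305 CPM in the control, 1636 and 1144 CPM in the naris occluded and 1181 and 1911 CPM in the trained libraries, and the next cluster, a neuronal one, had a mean of 9.67 CPM. Prg4, which encodes the joint and surface lubricant lubricin, was at 737 ± 343 CPM, against at most 1.35 CPM in any other cluster. Slc47a1 (MATE1), an exporter of organic cations, was at 444 ± 107 CPM against 2.83 CPM. The epithelial cadherin Cdh1 was at 219 ± 73.2 CPM against 2.65 CPM in monocytes, the next cluster. Libraries of Mes1 lay between 102 and 302 CPM for Cdh1, so that none came near another cluster's mean.

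The rest of the first 10 were the tetraspanin Tspan11 (188 CPM), the IGF-binding protein Igfbp6 (1684 CPM, next 109 CPM), the sulfate transporter Slc26a2 (327 CPM), the decoy receptor osteoprotegerin Tnfrsf11b (221 CPM), the metalloproteinase inhibitor Timp1 (165 CPM) and the WNT antagonist Sfrp4 (150 CPM). The Timp1 mean was raised by 1 cell, which held 42 of the 47 UMIs of trained replicate 2 (646 CPM), but the other libraries, at 41.2 to 107 CPM, were also above the 6.86 CPM of Mes2, the next cluster. Mgp, the matrix Gla protein that restrains calcification, was also highest in Mes1 and stood above these 10 genes in level. It was at 9283 and 9599 CPM in the control, 8682 and 8051 CPM in the naris occluded and 7682 and 9268 CPM in the trained libraries. Mgp had a UMI in 96.1% of Mes1 cells (89.1% thinned), 10.3% of Mes2 cells (4.13% thinned) and 1.59% of MicroG1 cells (0.619% thinned). Its spread over Mes1 libraries, an SD of 762 CPM, was small beside the gap to Mural2, the next cluster at 2095 CPM.

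**Figure D1:**
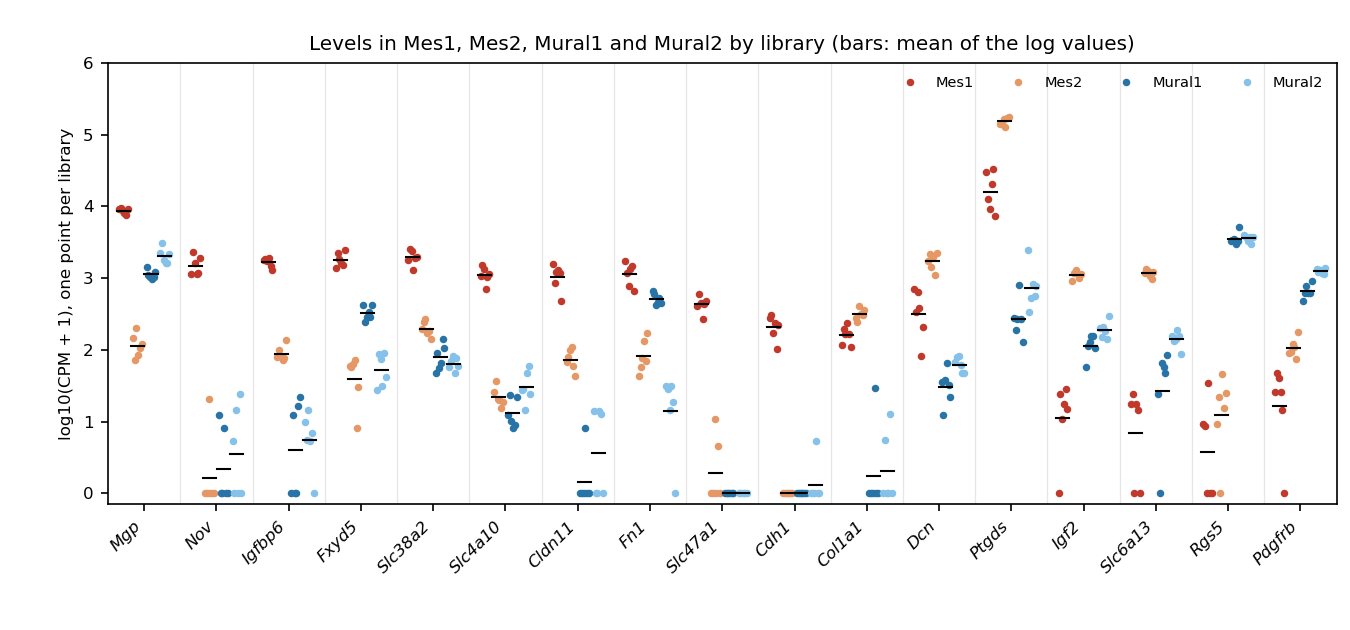
Levels of 17 genes in Mes1, Mes2, Mural1 and Mural2, as log10(CPM + 1), with a point for each of the 6 libraries and a bar at the mean of the log values. Mgp, Nov, Igfbp6 and Slc47a1 lie higher in each Mes1 library than in any library of the other clusters, while Ptgds, Igf2 and Slc6a13 lie highest in Mes2 and Rgs5 in the mural clusters.

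Mes1 was then set against Mes2. A gene was called higher or lower where its median log2 ratio over the libraries (with 10 CPM added to both levels) was at least 2-fold and had the same sign in each of the 6 libraries, among genes with a mean of at least 50 CPM in either cluster. Of 3396 such genes, 384 were higher in Mes1 (11.3%) and 223 were lower (6.57%), with a median log2 ratio of 0.27. Since Ptgds alone took a large part of the Mes2 UMIs, the ratios were also computed with Ptgds left out of the totals: the median then fell to 0.03, a shift of −0.24, with 290 genes higher and 312 lower, so that the share of higher genes among those called went from 63.3% to 48.2%.

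The 8 genes furthest above Mes2 were Nov, Mgp, Prg4, the secreted peptide gene 1500015O10Rik, the adhesion protein embigin (Emb), the WNT amplifier Rspo3, Slc47a1 and the sodium bicarbonate transporter Slc4a10. Mgp had a log2 ratio of 6.12 (8761 against 121 CPM), Rspo3 of 5.28 (646 ± 169 against 5.62 ± 6.20 CPM) and Slc4a10 of 5.21 (1129 ± 276 against 21.9 ± 7.41 CPM). For Nov, Prg4 and Emb, Mes2 held 6, 1 and 1 UMIs in all, so that their ratios of 6.87, 5.99 and 5.51 depend on the added 10 CPM. The 8 genes furthest below Mes2 were the growth factor Igf2 (15.1 ± 9.69 against 1112 ± 132 CPM, log2 −5.52), the proteoglycan fibromodulin Fmod (log2 −5.48), the GABA transporter Slc6a13 (log2 −5.45), the cystine transporter Slc7a11 (log2 −5.44), the proline transporter Slc6a20a (log2 −4.66), vitronectin Vtn (log2 −4.57), the imprinted neuronatin Nnat (log2 −4.42) and tetranectin Clec3b (log2 −4.31). For these 16 genes no library of one cluster overlapped a library of the other. They were picked for the largest ratios, so that this adds no support, and such genes were not counted over the whole table.

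**Figure D2:**
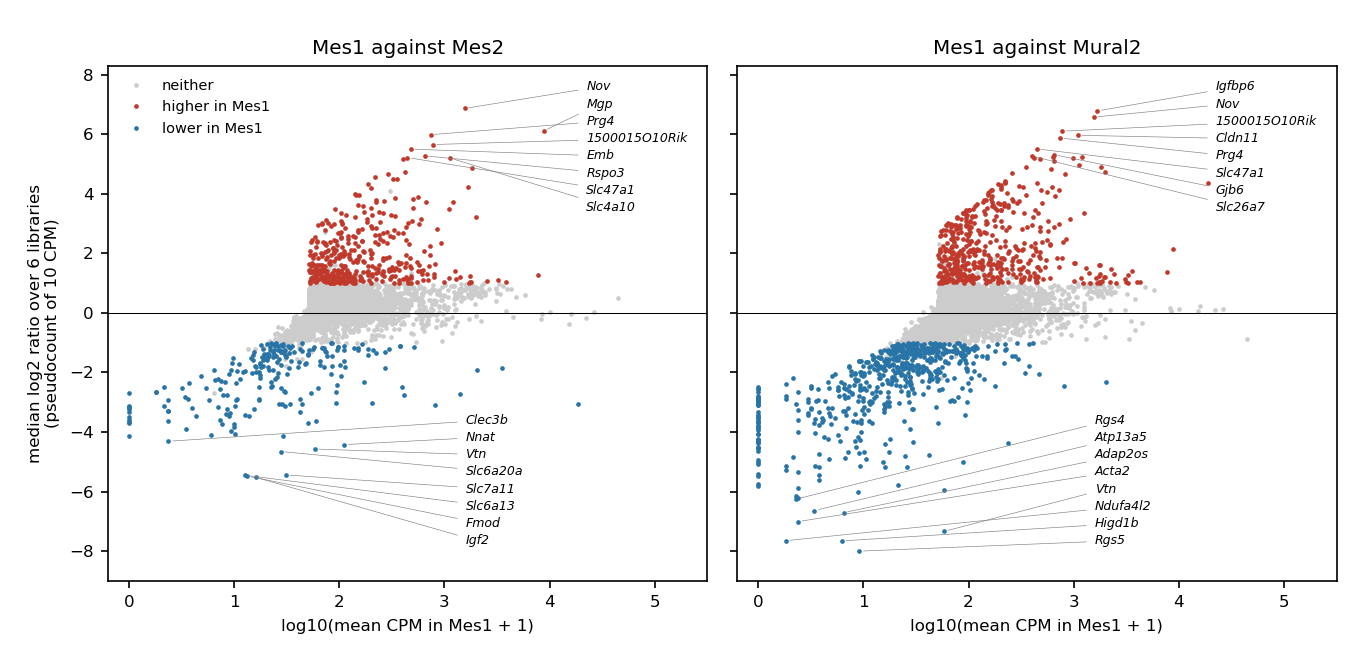
Median log2 ratio of Mes1 to Mes2 (left) and to Mural2 (right) over 6 libraries, with 10 CPM added, against the mean level in Mes1 as log10(CPM + 1), 1 point per gene of at least 50 CPM in either cluster. Named are the 8 genes furthest each way: Nov and Mgp stand at the top against Mes2 (6.87 and 6.12), Igf2 and Fmod at the bottom (−5.52 and −5.48), and Rgs5 at the bottom against Mural2 (−8.00).

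Lists of genes that mark the meningeal layers divided the mesenchymal pair. All lists here and below were chosen with earlier results of these data known, so that their counts describe the listed genes only. Of 8 arachnoid barrier genes, 6 were higher in Mes1 than in Mes2 and none lower (median log2 2.67), and 5 were highest of the 38 clusters. Cldn11, the claudin of tight junction strands, was at 1564 and 843 CPM in the control, 1202 and 1317 CPM in the naris occluded and 1167 and 481 CPM in the trained libraries, all above the 41.6 to 109 CPM of Mes2 (log2 3.48); among all clusters only myelinating oligodendrocytes, at 3324 CPM, were above it. Cdh1 had 168 UMIs in Mes1 and 0 in Mes2, where 0 of 653 cells allows a share of up to 0.459% of cells with a UMI, and against 3 UMIs over the whole of Mes2 it was at least 98.3-fold higher in Mes1. The efflux pump Abcg2 was at 323 ± 83.2 against 64.6 ± 32.5 CPM, the peptidase Dpp4 at 78.7 ± 52.1 against 8.73 ± 6.20 CPM and the transcription factor Klf5 at 72.4 ± 19.6 against 2.31 ± 2.64 CPM. The connexins Gjb2 (451 against 369 CPM) and Gjb6 (646 against 740 CPM) overlapped between the clusters, with log2 ratios of 0.21 and −0.06.

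All 4 dura mater genes listed were higher in Mes1 than in Mes2 (median log2 2.86) and highest of the 38 clusters. Fxyd5, a regulator of the sodium pump and of adhesion, was at 1391 to 2448 CPM in Mes1 and 7.25 to 71.1 CPM in Mes2. Foxp1, a forkhead factor, was at 315 ± 113 against 107 ± 18.5 CPM. Alpl, alkaline phosphatase, was at 103 ± 44.2 CPM with 1 UMI in the whole of Mes2, but Mural1 was close to it at 86.3 ± 53.3 CPM.

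The other layer lists lay the opposite way. Of 6 pial and perivascular fibroblast genes, 4 were counted and all 4 were lower in Mes1 (median log2 −5.47), and Lama1, a laminin chain of the pial basement membrane, had 0 UMIs in Mes1 and 33 in Mes2. Of 4 arachnoid genes, 3 were lower (median log2 −2.64): Ptgds, the retinoic acid synthase Aldh1a2 (33.1 ± 24 against 305 ± 21.7 CPM) and Angptl2, an angiopoietin-like secreted protein (5.62 ± 5.25 against 67.5 ± 28.4 CPM). Crabp2, which carries retinoic acid in the cell, was at 204 ± 65.0 against 341 ± 26.4 CPM and did not reach the 2-fold bound. Of the 6 fibroblast genes, 4 were lower and none higher (median log2 −1.54). With Ptgds out of the totals, Col15a1 was counted too and all 5 of the pial and perivascular fibroblast genes were lower, the arachnoid list without Ptgds had 2 of 3 lower, the arachnoid barrier list kept 6 higher and 0 lower, the dura mater list 4 and 0, and the fibroblast list 0 and 4.

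Ptgds encodes prostaglandin D2 synthase, a lipid carrier of the cerebrospinal fluid. In Mes1 it was at 29809 and 12646 CPM in the control, 9220 and 20530 CPM in the naris occluded and 33104 and 7329 CPM in the trained libraries, against a mean of 155022 ± 20696 CPM in Mes2. The median Mes1 cell gave 0.163% of its UMIs to Ptgds and the median Mes2 cell 14.6%. At least 1 Ptgds UMI was found in 78.7% of Mes1 cells (59.6% thinned). It was also found in 37.9% of MicroG1 cells (13.2% thinned) and in 36.0% of Mural2 cells (17.6% thinned). A group of 27 Mes1 cells (11.7%) gave it over 5%, a bound set after the values were seen, against 80.2% of Mes2 cells and 0 of 2260 MicroG1 cells. These 27 cells numbered 5 and 3 in the control, 2 and 8 in the naris occluded and 8 and 1 in the trained libraries. Summed over libraries, they had 6630 CPM of Mgp against 9146 CPM in the other 203 cells, 319 against 1721 CPM of Nov, and 2768 against 963 CPM of Cldn11. They also had 5547 against 1038 CPM of Apod, a lipid carrier abundant in Mes2, and more of 4 other genes that are higher in Mes2: Slc6a13 (68.3 against 4.33 CPM), Slc13a4 (125 against 17.3 CPM), Slc7a11 (103 against 23.1 CPM) and Vtn (125 against 49.1 CPM). They had 11.4 against 15.9 CPM of Igf2 and no UMI of Fmod. Whether some of these cells hold RNA of a Mes2 cell was not tested.

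Genes of the matrix differed from Mes2 in both directions. Of 7 fibrillar and associated collagens counted, 3 were higher and 1 lower (median log2 0.63). The higher ones were the collagen VI chains Col6a1 (260 ± 54.8 against 43.7 ± 14.1 CPM) and Col6a2 (232 ± 35.3 against 36.8 ± 8.43 CPM), which form beaded filaments, and Col12a1 (302 ± 72.0 against 45.1 ± 22.7 CPM), which coats collagen fibrils. The lower one was Col1a1. Of 8 basement membrane genes counted, 4 were lower and none higher (median log2 −1.11), namely the collagen IV chain Col4a5 and the laminin chains Lamb1, Lama2 and Lama4. With Ptgds out of the totals Col15a1, Col4a1 and Nid2 joined them, giving 7 of 10 lower. Lamb1 had 0 UMIs in Mes1 and 106 in Mes2, which against 3 UMIs over all of Mes1 is at least 20.1-fold lower. Of 7 small leucine-rich proteoglycans counted, 5 were lower and none higher (median log2 −2.16), with Fmod, Lum (27.7 ± 31.3 against 231 ± 111 CPM) and Dcn furthest, while Bgn, biglycan, was at 305 ± 87.3 against 234 ± 44.1 CPM.

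Of 11 elastic fiber and matricellular genes counted, 4 were higher and 2 lower (median log2 0.04). Besides Nov and Mgp the higher ones were fibronectin Fn1 (1195 ± 409 against 91.0 ± 50.1 CPM) and Islr, a secreted leucine-rich protein of stromal cells (622 ± 174 against 234 ± 23.0 CPM). Efemp1, an elastic fiber glycoprotein, was shared by the pair at 604 ± 90.8 and 690 ± 103 CPM, and was at 2.37 CPM in Mural1 and 9.07 CPM in Mural2. Sparcl1, a secreted matricellular protein of astrocytes and vessels, was lower at 91.5 ± 43.8 against 726 ± 72.3 CPM.

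Of 10 adherens and gap junction genes counted, 4 were higher and 2 lower (median log2 0.13). The higher ones were Cdh1, Emb, the mesenchymal cadherin Cdh11 (152 ± 42.5 against 29.6 ± 12.7 CPM) and the connexin Gja1 (1257 ± 364 against 424 ± 68.5 CPM). Vcam1, which binds leukocyte integrins, had 0 UMIs in Mes1 and 224 in Mes2, at least 42.5-fold lower against the same bound. Of 12 tight junction genes 3 could be counted, and 1, Cldn11, was higher, with Cldn5 passing as lower when Ptgds was out of the totals; the scaffold gene Tjp1 was at 197 ± 49.2 against 114 ± 12.7 CPM.

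Membrane transporters lay on both sides: all 16 that were counted passed the bound, 7 higher and 9 lower in Mes1 (median log2 −2.67). Of all 3396 genes counted, 11.3% were higher and 6.57% lower. The list was chosen with earlier results of these data known, so that its counts do not speak for transporters at large. The higher ones moved bicarbonate and chloride (Slc4a10 and Slc26a7, the latter 402 ± 120 against 1.72 ± 2.81 CPM), neutral amino acids (Slc38a2, 1993 ± 463 against 200 ± 45.4 CPM), organic cations (Slc47a1) and drugs and metabolites (Abcg2, Abcb1a and Abcc4). Abcb1a, which encodes P-glycoprotein, was at 263 ± 37.5 against 12.5 ± 14.2 CPM. Abcc4 no longer passed with Ptgds out of the totals, which left 6 higher and 9 lower. The lower ones included the organic anion transporters Slc22a6 (25.7 ± 21.7 against 321 ± 47.2 CPM) and Slc22a8 (41.0 ± 22.4 against 363 ± 51.9 CPM), the sulfate transporter Slc13a4 (28.3 ± 16.3 against 570 ± 78.3 CPM) and the glutamate transporter Slc1a3 (59.2 ± 23.2 against 713 ± 104 CPM).

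Among secreted signals, 2 of 7 IGF system genes counted were higher and 2 lower (median log2 −0.75). Igfbp6, which prefers IGF2, was at 1684 ± 233 against 90.2 ± 24.6 CPM and Igfbp5 at 643 ± 294 against 142 ± 42.4 CPM. Igfbp2 was lower at 413 ± 177 against 2512 ± 263 CPM, as was Igf2 itself. Without Ptgds in the totals Igf1 and Igfbp7 joined them, giving 2 higher and 4 lower. Of 10 WNT and BMP genes counted, 3 were higher (Rspo3, Bmp4 and Bmp5) and 3 lower (Wnt5a, Wnt6 and Bmp7), with a median log2 of 0.28. Wnt6 was at 52.8 ± 39.8 against 272 ± 68.1 CPM and Bmp4 at 190 ± 47.9 against 67.9 ± 23.4 CPM. Of 6 retinoid genes counted, 1 was higher and 3 lower (median log2 −1.50). The higher one was Stra6, the retinol importer (102 ± 48.3 against 12.7 ± 12 CPM), and Cyp26b1, which degrades retinoic acid, had 0 UMIs in Mes1 and 193 in Mes2.

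Transcription factors of meninges and mesenchyme leaned towards Mes1: of 13 counted, 8 were higher and 1 lower (median log2 1.54), and 10 of the 16 in the table were highest of the 38 clusters in Mes1. Foxc1, which is needed for the meninges to form, was at 367 ± 70.5 and 336 ± 80.0 CPM in the pair, whereas its paralog Foxc2 was at 204 ± 68.1 against 60.0 ± 22.1 CPM. Six2 was at 65.8 ± 40.4 against 5.94 ± 7.42 CPM, Tbx15 at 54.8 ± 26.0 against 8.97 ± 5.73 CPM and the cofactor Lmo4 at 926 ± 190 against 172 ± 18.7 CPM. Tbx18 was the lower one, at 33.3 ± 9.75 against 93.8 ± 22.3 CPM. Of 8 annexin and S100 genes counted, 5 were higher and none lower (median log2 1.33), among them the phospholipid-binding Anxa1 (287 ± 79.4 against 2.16 ± 2.53 CPM) and Anxa2 (721 ± 148 against 145 ± 19.1 CPM) and its partner S100a10 (718 ± 143 against 234 ± 54.4 CPM). Without Ptgds in the totals 4 passed.

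Of 9 lipid carrier, complement, chemokine and coagulation genes counted, 2 were higher and 5 lower (median log2 −1.85). The higher ones were clusterin Clu (847 ± 400 against 105 ± 29.0 CPM) and tissue factor F3 (668 ± 240 against 58.2 ± 26.6 CPM). The lower ones included Apoe (3514 ± 723 against 12640 ± 401 CPM), Apod (1396 ± 665 against 10787 ± 1580 CPM) and the chemokine Cxcl12 (94.7 ± 51.3 against 508 ± 59.5 CPM). Of 6 immediate early and stress genes counted, 2 were higher (the nuclear noncoding RNA Neat1 and Jun) and none lower (median log2 0.88). With Ptgds out of the totals Jun no longer passed.

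**Figure D3:**
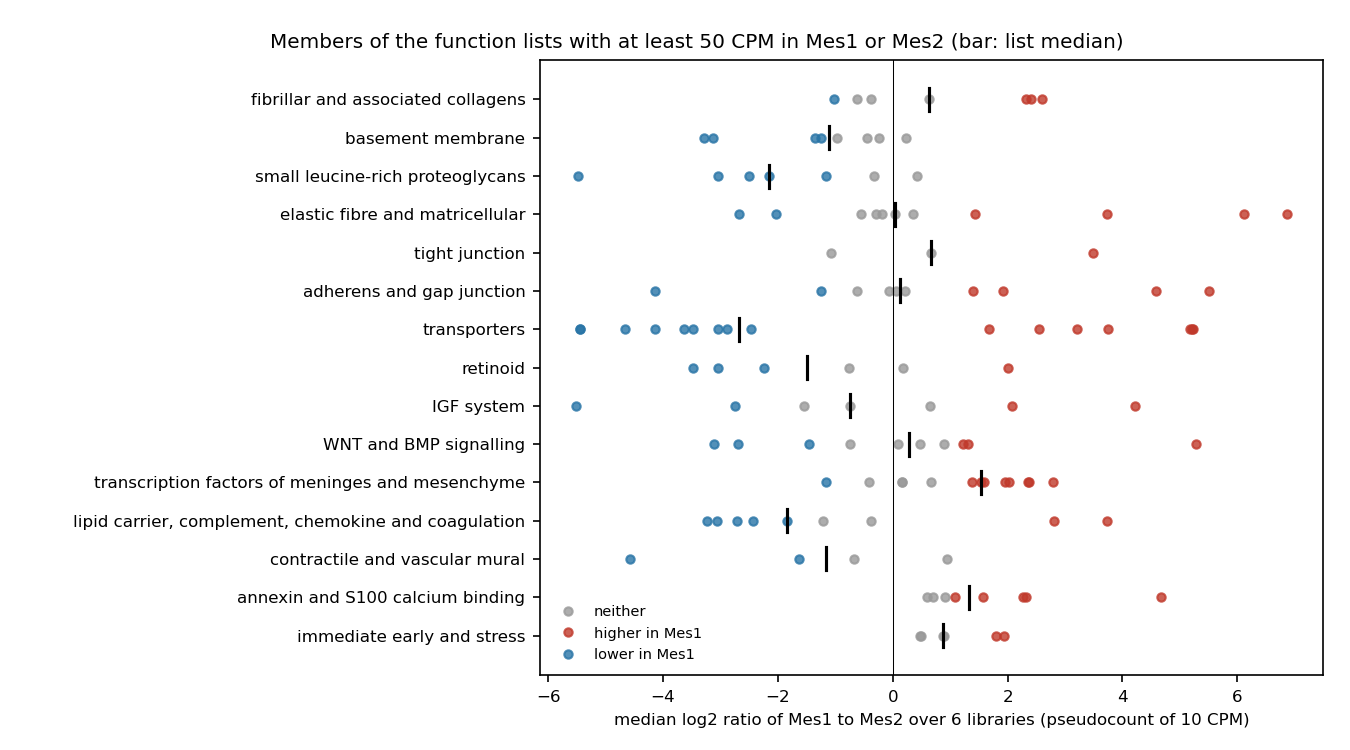
Median log2 ratio of Mes1 to Mes2 over 6 libraries (10 CPM added) for the members of 15 function lists with at least 50 CPM in either cluster, with a point per gene and a bar at the list's median. The 16 transporters fall into 7 higher and 9 lower with none between, while the proteoglycans and basement membrane genes hold no higher member and the annexin and S100 genes no lower one. The lists were chosen with earlier results of these data known.

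Against the mural clusters the gap was wider. Of 4254 genes counted against Mural1, 406 were higher in Mes1 (9.54%) and 735 lower (17.3%), with a median log2 ratio of −0.18, and of 3931 against Mural2, 479 were higher (12.2%) and 575 lower (14.6%), with a median of −0.08. Nov, Igfbp6, Cldn11, 1500015O10Rik and Prg4 were among the 8 furthest above either mural cluster, joined by Rspo3, Efemp1 and Ptgds against Mural1 and by Slc47a1, Gjb6 and Slc26a7 against Mural2. Igfbp6 was at 8.02 ± 9.34 CPM in Mural1 and 6.15 ± 4.54 CPM in Mural2 (log2 6.96 and 6.79 for Mes1). Ptgds in Mes1 lay at or above 7329 CPM in each library, against at most 811 CPM in Mural1 and 2487 CPM in Mural2.

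The defining genes of mural cells were near 0 in Mes1. Rgs5, a pericyte regulator of G protein signaling, had 6 UMIs in all (8.15 ± 12.8 CPM, against 3592 CPM in Mural1 and 3600 CPM in Mural2, log2 −7.98 and −8.00). Pdgfrb, the receptor that recruits pericytes, was at 24.8 ± 16.9 CPM against 668 and 1254 CPM. The potassium channel subunit Abcc9 and the smooth muscle myosin Myh11 had 0 UMIs in Mes1, which against 3 UMIs over the cluster makes Abcc9 at least 89.8-fold lower than in Mural1 and at least 123-fold lower than in Mural2. Of 10 mural markers, none was higher in Mes1, 9 were lower than in Mural1 and all 10 were lower than in Mural2, and their sum was 68.8 to 189 CPM in Mes1 against 17005 to 24975 CPM in Mural2. The longer list of contractile and vascular genes gave 0 higher and 15 lower of 16 against Mural1 (median log2 −4.76) and 0 higher and 16 lower of 16 against Mural2 (median log2 −5.82). Against Mes2 4 of its genes could be counted, of which 2 were lower and none higher. The other genes furthest below Mural2 were Higd1b, Ndufa4l2, Vtn, Acta2, Adap2os, Atp13a5 and Rgs4, each at 57.6 CPM or less in Mes1.

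Several of the genes furthest below Mural1 were endothelial: the VEGF receptor Flt1 (log2 −7.24), Ly6c1 (log2 −7.03), the transporter Slco1a4 (log2 −6.43) and the claudin Cldn5 (log2 −6.20), beside Higd1b, Ndufa4l2 and the carbonic anhydrase Car4. The 6 endothelial markers summed to 9598 to 11935 CPM in Mural1, 208 to 629 CPM in Mural2 and 96.3 to 231 CPM in Mes1. All 6 were lower in Mes1 than in Mural1, 3 of 4 counted were lower than in Mural2 and 2 of 4 were lower than in Mes2, or 3 of 4, with Cldn5, when Ptgds was out of the totals. What endothelial RNA adds to the difference from Mural1 was not tested.

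The arachnoid barrier genes were higher in 7 of 8 against Mural1 (median log2 4.91) and in 8 of 8 against Mural2 (4.36). Abcg2 was the exception, at 336 CPM in Mural1. The dura mater genes were higher in 2 of 4 against Mural1 (median log2 1.42) and in 4 of 4 against Mural2 (2.88). The fibroblast genes were higher in 4 of 4 counted against Mural1 and 3 of 4 against Mural2, and the arachnoid genes in 2 of 3 against each with 1 lower (Angptl2). The pial genes were lower in 2 of 2 and 3 of 3 counted, with Slc6a20a at 295 CPM in Mural1 and 479 CPM in Mural2 against 26.8 CPM in Mes1.

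Matrix and signaling lists gave more higher members against mural cells than against Mes2. Against Mural1 and Mural2, collagens were higher in 7 of 7 and 5 of 7 counted with none lower, elastic fiber and matricellular genes in 7 of 11 and 8 of 10 with 2 and 1 lower, WNT and BMP genes in 8 of 9 and 5 of 9 with none lower, and IGF system genes in 4 of 7 and 4 of 6 with 3 and 2 lower. Basement membrane genes ran the other way, with 6 of 8 lower against each and none higher. The collagen IV chain Col4a1, for one, was at 28.2 ± 15.5 CPM in Mes1, 356 CPM in Mural1 and 305 CPM in Mural2. Retinoid genes were higher in 2 of 3 and 3 of 3, annexin and S100 genes in 5 of 8 against each, transcription factors in 7 of 14 and 8 of 14 with 1 and 2 lower, adherens and gap junction genes in 7 of 13 and 8 of 12 with 4 lower in each, and transporters in 4 and 6 of 12 with 5 lower in each. Proteoglycans were higher in 2 of 5 and lower in 1 of 5 against each, with Aspn lower and Ogn and Dcn higher. Lipid carrier and related genes were higher in 5 of 7 and 4 of 7 with 1 lower in each. Tight junction genes were higher in 1 of 6 and 1 of 4 with 4 and 2 lower, and immediate early and stress genes in 1 of 6 and 2 of 7 with none lower.

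Markers of other cells of the bulb were low in Mes1, with Ttr as an exception. The neuron list summed to 193 to 436 CPM in Mes1 libraries, below Mes2 of the same library in each (401 to 738 CPM in Mes2), and the astrocyte list to 44.3 to 173 CPM. The olfactory ensheathing list summed to 217 to 930 CPM, led by Fabp7 at 373 ± 177 CPM against 15524 CPM in the OEC1 cluster, and the myelinating oligodendrocyte list to 345 to 835 CPM, led by Mbp. None of these 4 lists had a member higher in Mes1 than in Mes2. Of the olfactory epithelium list, 2 genes were in the table, Omp at 14.4 ± 9.30 CPM and Cyp2g1 at 0, and all 4 cartilage and bone genes (Col2a1, Acan, Bglap and Ibsp) had 0 UMIs in Mes1. The ependyma and choroid plexus list summed to 115 to 1013 CPM, nearly all Ttr, transthyretin, which is very abundant in choroid plexus. Ttr was at 115 to 1004 CPM in Mes1 libraries, with 239 UMIs in 49 cells and 44.4% of them in 2 cells. In Mes2 it was at 740 CPM in trained replicate 1 and at 0 to 3.74 CPM in the other libraries. The source of this Ttr was not tested. Foxj1 had 1 UMI and Folr1 none.

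Markers of blood and immune cells sat in few Mes1 cells. Hbb-bs, a beta globin gene, had 1154 UMIs, of which 95.2% lay in 2 cells: 899 of the 2355 UMIs of a cell in trained replicate 1, and 200 of the 4585 UMIs of a cell in naris occluded replicate 1. Without these 2 cells Hbb-bs fell from 1244 to 63.9 CPM in Mes1, against 67.5 CPM in Mes2, while Mgp went from 8761 to 8718 CPM. The red blood cell list summed to 32.9 to 140 CPM in 4 libraries, 1774 CPM in naris occluded replicate 1 and 9121 CPM in trained replicate 1. C1qa, a complement gene of microglia, had 121 UMIs in 34 cells with 47.1% in 2 of them, and Cd74, the invariant chain of antigen presentation, had 86 UMIs in 24 cells. Cd74 was the 1 gene of the microglia and macrophage list called higher than in Mes2, at 142 ± 174 against 22.3 ± 16.7 CPM. It was at 481 CPM in trained replicate 2 and at 32.9 to 173 CPM in the other libraries, and 50% of its UMIs lay in 2 cells. Mrc1, a marker of border macrophages, had 0 UMIs.

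Within Mes1, the UMIs of some leading genes were followed from cell to cell. Slc4a10 had a UMI in 65.2% of cells (33.0% thinned) and Cldn11 in 63.0% (35.2% thinned), against 4.13% and 9.80% in Mes2 and 2.79% and 1.02% in MicroG1. Among the 164 cells with at least 1000 UMIs, each thinned to 1000, 50 had Slc4a10 alone, 35 Cldn11 alone, 46 both and 33 neither. The 2 genes were nearly uncorrelated across these cells (Pearson's r = −0.0852 on the log scale of the thinned counts, n = 164 cells of 6 libraries). A cell with no UMI of a gene at this depth may still express it, and the pair of genes and those compared next were chosen after their values were seen, so that what follows is a description. Cells with Slc4a10 alone made up 6.67% to 51.9% of the cells in a library. Their median depth before thinning was 2566 UMIs, and that of cells with Cldn11 alone was 3254 UMIs.

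In CPM of the thinned counts, summed over libraries, cells with Slc4a10 alone were above those with Cldn11 alone in Slc26a7 (481 against 57.3 CPM, higher in 6 of 6 libraries), Nov (1483 against 601 CPM, 6 of 6), Rspo3 (561 against 200 CPM, 6 of 6) and Slc47a1 (641 against 172 CPM, 5 of 6). The opposite order held for Ptgds (6153 against 51926 CPM), Clu (381 against 1976 CPM), Prg4 (461 against 1403 CPM) and Dapl1 (120 against 802 CPM), each in 5 of 6 libraries. Some of these levels rest on few UMIs: 24 against 2 for Slc26a7, 28 against 7 for Rspo3 and 32 against 6 for Slc47a1. For Clu they were 19 against 69, for Prg4 23 against 49 and for Dapl1 6 against 28. For Slc26a7 most libraries thus had no UMI in cells with Cldn11 alone. Mgp was close in both, at 9780 and 8506 CPM, with 3 libraries each way. Dcn, at 60.1 against 1146 CPM, was higher with Cldn11 alone in 3 libraries and with Slc4a10 alone in 1. Naris occluded replicate 1 held 1 cell with Cldn11 alone and naris occluded replicate 2 held 2 with Slc4a10 alone, so that 2 of the 6 libraries in these counts rest on 1 or 2 cells of a class.

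The next question was whether the share of Mes1 cells changed with odor input. Mes1 made up 0.330% (95% interval 0.227% to 0.463%) and 0.415% (0.284% to 0.585%) of cells in the control libraries, 0.535% (0.381% to 0.731%) and 0.524% (0.387% to 0.695%) in the naris occluded and 0.511% (0.384% to 0.666%) and 0.358% (0.230% to 0.532%) in the trained libraries, where exact binomial intervals cover counting error only. Both occluded libraries lay above both controls, while trained replicate 1 lay above both controls and trained replicate 2 between them. In edgeR's quasi-likelihood test on the cell numbers of all 38 clusters, the log2 change of Mes1 was 0.51 (SE 0.41, adjusted p = 0.525) after occlusion and 0.25 (SE 0.42, adjusted p = 0.764) after training. The change after training was −0.048 without trained replicate 1 and 0.09 without control replicate 1. The same fits called 1 of 38 clusters (2.63%) for occlusion and 0 of 38 (0.00%) for training, and Mes1 was not the one called. Pooling all cells of a group and counting each cell as a replicate, a chi-square test gave 0.53 for occlusion with an adjusted p of 0.0424, which ignores the spread between libraries. Done this way, 22 of 38 clusters were called for occlusion and 20 of 38 for training.

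As a part of both mesenchymal clusters, Mes1 was 21.4% and 28.8% in the control, 23.8% and 28.4% in the naris occluded and 28.6% and 25% in the trained libraries. The mean differed from control by 0.963 percentage points after occlusion and by 1.66 after training, and neither direction was stable: the differences were −2.74 and −2.04 without control replicate 1, −1.35 for occlusion without naris occluded replicate 2, −0.13 for training without trained replicate 1, and −2.99 and −4.06 in cells with at least 1000 UMIs. The exact two-sided permutation test gave p = 1 for both, where the smallest p that 2 against 2 libraries allow is 0.333.

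**Figure D4:**
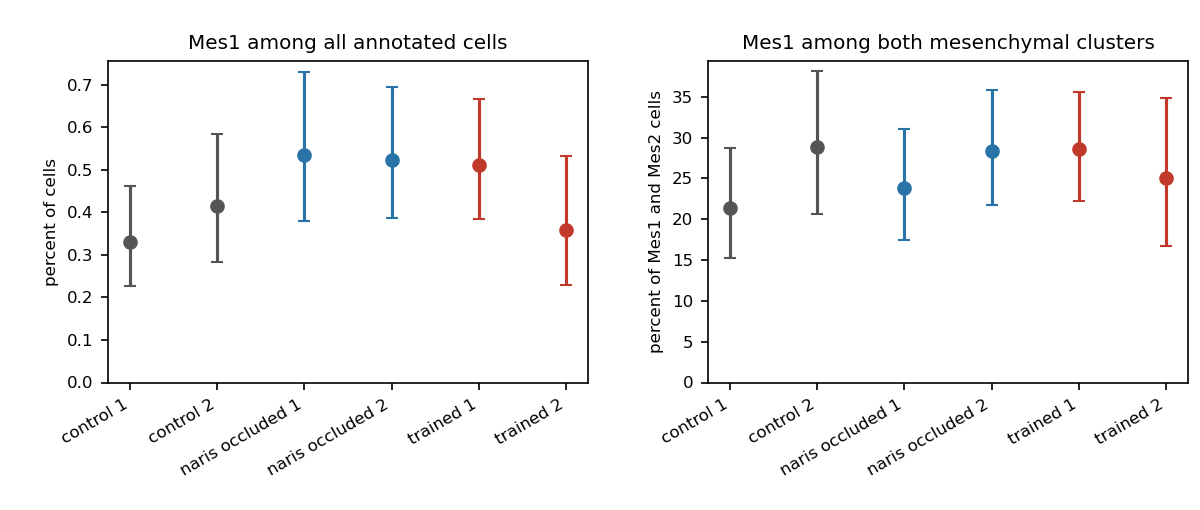
Mes1 as a percent of all annotated cells (left) and of Mes1 and Mes2 cells (right) in each of the 6 libraries, with exact 95% binomial intervals. On the left both occluded libraries (0.535% and 0.524%) lie above both controls (0.330% and 0.415%) with intervals that overlap, and on the right the libraries range from 21.4% to 28.8%.

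Gene levels within Mes1 were compared between conditions on counts summed over the cells of each library, which came to 121506 and 129285 UMIs in the control, 202938 and 121480 in the naris occluded and 147356 and 72727 in the trained libraries. The edgeR test on 2398 genes called none at an adjusted p under 0.05 for occlusion (0.00%) and none for training (0.00%). At an unadjusted p under 0.05 there were 72 genes after occlusion and 119 after training, and DESeq2 likewise called 0 and 0, with 15 and 39 genes at an unadjusted p under 0.05. Leaving out 1 library of the group outside the comparison kept 2 libraries in each group compared. It gave 2 and 7 calls for occlusion (without trained replicate 1 and 2) and 7 and 13 for training (without naris occluded replicate 1 and 2). Calls from fits that leave 1 library in a compared group are not given, since such a group has no spread of its own. With the replicate number as a block, 4 genes were called for occlusion (C1qa, C1qb, Hba-a1 and Hba-a2) and 3 for training (Hba-a1, Hba-a2 and Hbb-bs). Of the Hba-a1 and Hba-a2 UMIs in Mes1, 98.6% and 97.5% lay in 2 cells, as with Hbb-bs above. The libraries held 24 to 54 Mes1 cells. The genes given next had the smallest unadjusted p each way and did not pass on all 6 libraries. When 1 library of the group outside the comparison was left out, C1qa and C1qb passed for occlusion without trained replicate 1 or trained replicate 2. Ctss passed for occlusion without trained replicate 2. For training, Higd1a and Gas6 passed without naris occluded replicate 1 or naris occluded replicate 2. With no filter on low counts C1qa, C1qb and Ctss passed for occlusion and Higd1a and Gas6 for training.

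After occlusion the 3 genes with positive changes were microglial. C1qa had 7 and 5 UMIs in the control, 43 and 34 in the naris occluded and 28 and 4 in the trained libraries (log2 change 2.29, SE 0.50, edgeR adjusted p = 0.594). C1qb had 2 and 3, 31 and 37, and 30 and 2 UMIs in the same order (3.38, SE 0.75, edgeR adjusted p = 0.594), and the protease gene Ctss had 2 and 2, 23 and 16, and 17 and 2. Both occluded libraries were above both controls, an order that adds no support for genes picked by p, and trained replicate 1 was with them. Single cells carried most of this: 33 of 43 C1qa UMIs in naris occluded replicate 1, 24 of 34 in naris occluded replicate 2 and 20 of 28 in trained replicate 1 came from 1 cell each, and without these 3 cells the libraries had 10, 10 and 8. Single genes weighed on the list as well: the whole microglia and macrophage list summed to 124 and 139 CPM in the control, 429 and 535 CPM in the naris occluded and 305 and 550 CPM in the trained libraries, and Cd74 alone gave 481 CPM of the sum in trained replicate 2. Whether such cells are doublets with microglia that were left in was not tested. In Mes2 the same fit also gave positive log2 changes after occlusion, none of which passed. They were 1.18 (SE 0.31) for C1qa, 0.93 (SE 0.32) for C1qb and 0.52 (SE 0.48) for Ctss. C1qa in Mes2 was at 71.2 and 70.5 CPM in the control and 168 and 161 CPM in the naris occluded libraries.

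The negative changes after occlusion were Spp1, osteopontin (52 and 45 UMIs in the control, 45 and 18 in the occluded libraries), Igfbp5 (74 and 116, then 92 and 20) and the microtubule protein gene Map1b (10 and 13, then 6 and 3), at log2 changes of −1.06, −1.27 and −1.72 and an edgeR adjusted p of 1.00 each. In CPM both occluded libraries were below both controls for each of these 3, with Spp1 at 428 and 348 CPM in the control and 222 and 148 CPM in the occluded libraries. The 3 genes were picked by p from these same libraries, so that this order adds no support. For Igfbp5 that order rests on single cells, since without the cell with the most UMIs in each library 42 and 35 UMIs were left in the control and 81 and 15 in the occluded libraries. Ttr, outside the naming rule and picked after its values were seen, had 23 and 18 UMIs in the control, 50 and 122 in the naris occluded and 17 and 9 in the trained libraries (log2 change 1.85, SE 0.52, edgeR adjusted p = 1.00). Single cells held 24 of the 50 and 57 of the 122. Without the cell with the most Ttr UMIs in each library, 16 and 12 were left in the control and 26 and 65 in the occluded libraries. Another single cell of naris occluded replicate 2 held 49 of these 65. Ttr passed with no filter on low counts and without trained replicate 2.

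After training the smallest p belonged to Higd1a, a mitochondrial protein induced by low oxygen. It had 19 and 21 UMIs in the control, 44 and 23 in the naris occluded and 87 and 28 in the trained libraries (log2 change 1.65, SE 0.31, edgeR adjusted p = 0.314). Cxcl12 had 5 and 5 UMIs in the control and 23 and 11 in the trained libraries (1.93), and Gas6, a ligand of TAM receptors, 5 and 3, then 18 and 19 (2.44). Of the Gas6 UMIs 1 cell held 10 in trained replicate 1 and 1 cell held 11 in trained replicate 2, which left 8 in each. Lower were the matrix protein gene Thsd4 (32 and 34, then 14 and 8 UMIs, −1.37), Dcn (85 and 43, then 12 and 15, −1.97) and Gjb2 (70 and 84, then 38 and 21, −1.17), with an edgeR adjusted p of 0.522 for Cxcl12, Gas6, Thsd4 and Dcn and 0.547 for Gjb2. For Thsd4, Dcn and Gjb2 both trained libraries were below both controls, also in CPM, an order that adds no support for genes picked by p. For Dcn that order rests on 1 cell, which held 79 of the 85 UMIs of control replicate 1 and left 6 in its other cells.

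None of 20 genes followed for the cluster passed in the fit on all 6 libraries. They were the 10 leading genes with Mgp, Slc4a10, Cldn11, Fxyd5, Slc38a2, Emb and Rspo3, and Ptgds, Col1a1 and Dcn, which were lower than in Mes2. Over these 20 the log2 changes ran from −0.81 to 0.76 after occlusion (smallest edgeR adjusted p = 1.00). After training they ran from −1.97 (Dcn) to 1.68 (Timp1), each resting in part on the single cells given above (smallest edgeR adjusted p = 0.522). Some passed for training when 1 occluded library was left out: Dcn without naris occluded replicate 1 or naris occluded replicate 2, and Timp1 without naris occluded replicate 2. Dcn also passed for training with no filter on low counts. With 2 libraries a group, neither range shows that the genes did not change.

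**Figure D5:**
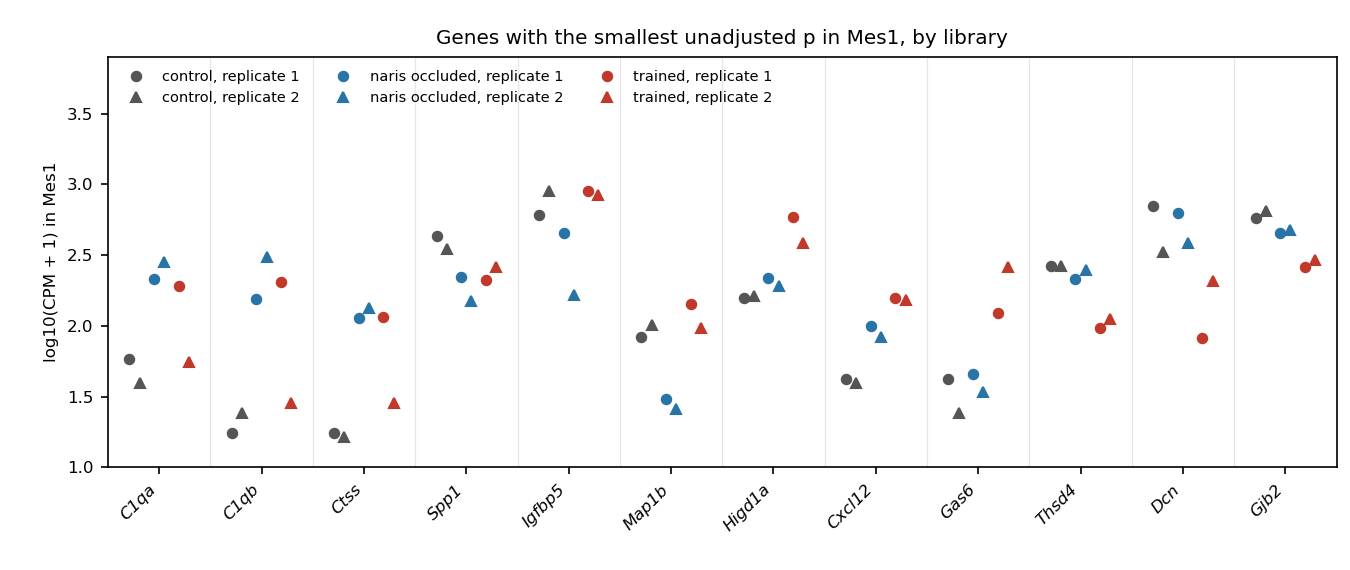
Levels in Mes1 of the 12 genes with the smallest unadjusted p in either comparison, as log10(CPM + 1), by condition (color) and replicate (circle 1, triangle 2). C1qa, C1qb and Ctss are high in both occluded libraries and in trained replicate 1, and Thsd4, Dcn and Gjb2 are low in both trained libraries. The genes were picked by p from these libraries, and none of the 12 passed an adjusted p of 0.05 on all 6 libraries.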

How the data were processed

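Single-cell libraries (10x Genomics Chromium) were read by the authors with Cell Ranger 2.0.0, and cells were filtered and clustered with Seurat 2.2.1 on genome mm10, as the submitters' processing notes name them. The deposited table holds raw UMI counts of 18560 genes in 52549 barcodes, and the cell annotation deposited by the authors gives cluster, library and a mitochondrial fraction for 51426 of them; the other 1123 were not used. Cluster names of the mesenchymal pair follow the study's marker table, against which the annotation has them exchanged. Libraries were taken from the annotation, since the starts of cell names reverse the 2 trained libraries; Xist and Y-linked genes bear on that choice.

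The members and gene lists were chosen with earlier results of these data known. Counts were summed per cluster and library and scaled to CPM. Clusters were compared without tests, on log2(CPM + 10), which understates changes of low genes. Conditions were tested with edgeR 4.0.16 (quasi-likelihood, TMM factors, filterByExpr, all 6 libraries, Benjamini-Hochberg at 0.05), with DESeq2 1.42.0 as an alternative; the fit was tested on simulated data. Tools were R 4.3.3, Python 3.11.15 and SciPy 1.17.1. Named were list members with the largest ratios, the 8 genes furthest each way per cluster comparison, the 3 with the smallest p each way per condition, the 10 leading genes, and Xist with 4 Y-linked genes; genes outside this are said to be. Some genes the rule names are not reported here. Of 238 listed genes 235 were in the table, in 16 cell type and 15 function lists. Floors are 3 UMIs over a cluster. In all, 44 alternatives were planned and 6 were added after seeing the data.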

Additional observations from a re-analysis of the deposited data

How the results depend on the processing

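The 48 gene calls named in the cluster comparisons kept direction and bound under each alternative that gives them a value. Counts of calls moved with the level asked for. With no minimum level, 424 genes were lower than in Mes2 and 971 lower than in Mural2. With a minimum of 100 CPM there were 248 higher and 124 lower against Mes2, 247 and 425 against Mural1, and 309 and 343 against Mural2. On the control libraries alone 635 genes were higher than in Mes2, of which 345 were among the 384 called on all 6. Leaving out 1 library gave 381 to 423 higher and 221 to 242 lower against Mes2, 408 to 440 and 742 to 779 against Mural1, and 478 to 513 and 569 to 603 against Mural2. Leaving out the 2 cells rich in hemoglobin, chosen after seeing the data, moved no count of genes over the whole table past 1.5 times, nor did leaving Ptgds out of the totals, which did move counts within some lists.

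The count of genes called between conditions rested on the fit. With no filter on low counts it was 8 for occlusion and 9 for training. Leaving out 1 library of the group outside the comparison gave 2 for occlusion without trained replicate 1 and 7 without trained replicate 2. For training it gave 7 without naris occluded replicate 1 and 13 without naris occluded replicate 2. Hba-a1, Hba-a2 and Hbb-bs were among the calls of each of these fits except occlusion without trained replicate 1. At least 95.2% of the UMIs of each of these genes lay in 2 cells. Of 12 condition genes named by the rule, C1qa, C1qb, Ctss, Higd1a, Gas6 and Dcn passed under some alternative that kept 2 libraries in each group compared. With the replicate number as a block, 4 genes were called for occlusion (C1qa, C1qb, Hba-a1 and Hba-a2) and 3 for training (Hba-a1, Hba-a2 and Hbb-bs). Same-numbered libraries did not deviate together in every pair (r = −0.0569 for control with occluded, 0.158 for control with trained and 0.106 for occluded with trained, over 2398 genes), so that the number is not taken as a pairing of animals, although it goes with sex by Xist and the Y-linked genes in all 3 groups and the block thus also takes up sex. With the replicate block the share of cells changed by 0.52 for occlusion (adjusted p = 0.519) and 0.25 for training.

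The share of cells gave 0.53 for occlusion by the chi-square test (adjusted p = 0.0424), which called 22 of the 38 clusters. Leaving out 1 library gave 0.35 to 0.68 for occlusion and −0.048 to 0.46 for training, the lowest without trained replicate 1. In cells with at least 1000 UMIs it was 0.27 for occlusion (adjusted p = 0.862) and 0.16 for training (adjusted p = 0.993). Mes1 as a part of both mesenchymal clusters turned direction, to −2.99 and −4.06 percentage points, in cells with at least 1000 UMIs, and ran from −2.74 to 4.66 for occlusion and −2.04 to 5.36 for training when 1 library was left out. It was below 0 for both without control replicate 1, for occlusion without naris occluded replicate 2 and for training without trained replicate 1. The causes were not tested. The condition tests rest on 24 to 54 cells in a library, and Mural1 comparisons rest on 11 to 42 cells.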
